A study of Mus musculus with 6 samples.

Results

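Gluconeogenesis is the route by which the liver makes new glucose. The 6 genes described here encode the enzymes and the transporter that carry it past the steps of glycolysis that do not run backwards: Pcx, Pck1, Pck2, Fbp1, Slc37a4 and G6pc. Some also serve other routes, as Slc37a4 and G6pc do in the release of glucose from glycogen. They were chosen by gene symbol, and each was represented by 1 probe set with a single gene symbol, so all 6 were among the 18820 genes measured. Their signals were compared between the livers of 4 Pcyt2+/- mice (mice 1 to 4) and 2 wild type mice (mice 3 and 4), all 2 months old and on the C57BL6 background, with 1 array per mouse. Pcyt2 encodes the enzyme that makes CDP-ethanolamine, a precursor of the membrane lipid phosphatidylethanolamine. The titles of the first group read knock-out, while its genotype field gives Pcyt2+/-, the genotype used here. The labels name no treatment, sex or feeding state.

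In the liver, pyruvate is first carboxylated to oxaloacetate in mitochondria by pyruvate carboxylase (Pcx). Phosphoenolpyruvate carboxykinase then makes phosphoenolpyruvate, with a cytosolic form (Pck1) that fasting hormones are known to induce strongly and a mitochondrial form (Pck2). Fructose-1,6-bisphosphatase (Fbp1) bypasses the committed step of glycolysis. At the end, glucose-6-phosphate is carried into the endoplasmic reticulum by Slc37a4 and cleaved there to glucose by the catalytic subunit of glucose-6-phosphatase (G6pc). Glucagon acting through cAMP and CREB, glucocorticoids, and FOXO1 are known to raise transcription of Pck1 and G6pc, and insulin is known to lower it.

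Pck1, Slc37a4 and G6pc are the members with the largest differences on both scales used below. Sequences upstream of their annotated transcription starts are shown because known hormone control of Pck1 and G6pc acts in part through upstream sequence. Only the nearest 250 bases were searched, and sites farther upstream were not. RefSeq promoter windows (GRCm38.p6) were matched by symbol for 6 of the 6 genes, and the 250 bases before the start are printed 5′ to 3′ on the gene's strand, which is + for the 3 genes. Capitals mark matches to the motifs searched.
Pck1, chr2:173152823-173153072: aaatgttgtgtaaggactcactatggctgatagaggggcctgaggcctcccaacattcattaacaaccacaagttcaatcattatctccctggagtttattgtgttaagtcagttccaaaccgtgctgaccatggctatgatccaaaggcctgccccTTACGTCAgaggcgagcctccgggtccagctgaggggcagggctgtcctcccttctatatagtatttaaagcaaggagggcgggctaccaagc
G6pc, chr11:101367466-101367715: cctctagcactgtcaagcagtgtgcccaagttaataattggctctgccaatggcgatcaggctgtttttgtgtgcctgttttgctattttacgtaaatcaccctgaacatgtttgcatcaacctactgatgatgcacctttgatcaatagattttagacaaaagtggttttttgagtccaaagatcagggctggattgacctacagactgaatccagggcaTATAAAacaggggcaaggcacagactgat
Slc37a4, first of 3 annotated starts, chr9:44396696-44396945: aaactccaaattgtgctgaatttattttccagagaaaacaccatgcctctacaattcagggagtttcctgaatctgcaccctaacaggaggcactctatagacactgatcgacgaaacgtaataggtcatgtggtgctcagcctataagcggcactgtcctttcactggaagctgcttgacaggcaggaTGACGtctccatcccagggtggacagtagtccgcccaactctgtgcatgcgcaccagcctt

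The Pck1 window held TTACGTCA, a variant of the cAMP response element, 93 to 86 bases before the start. This variant was put in the search because it is the known Pck1 element, so its match in Pck1 was fixed in advance. Variants known from the other genes were not searched. Of 32851 promoter windows of the same 250 bases, 0.447% held these letters on either strand. The consensus element TGACGTCA was in none of the windows of the 6 genes and in 1.55% of all windows. The shorter core TGACG was found for 2 of the 6 genes, Pck1 and Slc37a4, and in 17.8% of all windows. In Pck1 the core lies inside the TTACGTCA match, on the other strand, so it was fixed in advance too. Slc37a4 has 3 windows, so its count per gene is not on the same footing as the share per window. In Slc37a4 the core lay 61 to 57 bases before the first start. The second window held that site again, and another on the other strand 82 to 78 bases before the second start. The G6pc window held a TATA box (TATAAA) 29 to 24 bases before the start. The window of the third Slc37a4 start held one 32 to 27 bases before that start. These letters were in 12.4% of all windows, counted anywhere in the 250 bases and on either strand. The FOXO site GTAAACA (3.17% of all windows), the C/EBP site TTGCNNAA (9.56%) and the short glucocorticoid response site TGTTCT (16.1%) had no match in any window of the 6 genes, on either strand. These matches describe exact letters in these windows only. Sites farther upstream, or with letters other than the motifs searched, were not looked for. A motif without a match here may therefore still have a site in the gene.

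**Figure D1:**
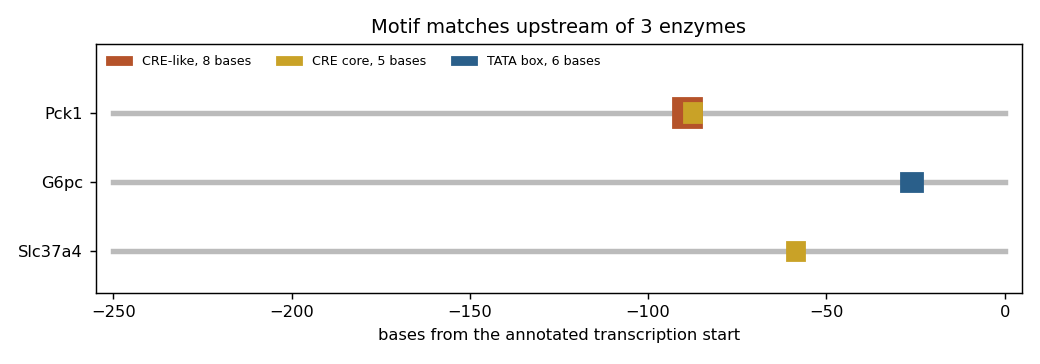
Motif matches in the 250 bases upstream of Pck1, G6pc and the first start of Slc37a4 (x axis, bases from the annotated transcription start; boxes, matches on either strand). The Pck1 match lies 93 to 86 bases, the Slc37a4 core 61 to 57 bases and the G6pc TATA box 29 to 24 bases before the start.

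The deposited values are log2 signals summarised with RMA by the authors, and array medians ran from 4.397 to 4.403. Most genes sat close to that level: 792 of the 18820 genes, or 4.21%, had a mean above 5. Between any pair of arrays Pearson's r across probe sets, which are not independent replicates, was 0.991 to 0.998. Hepatocyte markers such as Alb and Apoa1 were bright (9 of 9 measured above 5; list mean 10.35 to 10.44 in Pcyt2+/- and 10.45 to 10.50 in wild type). Lists of other cells stayed near the array median: the list mean was 4.424 to 4.439 in Pcyt2+/- and 4.431 to 4.435 in wild type for 7 adipocyte markers, which matter here because fat cells also express Pck1, and 4.384 to 4.393 against 4.384 to 4.385 for 8 kidney tubule markers. Lists of Kupffer cells, sinusoidal endothelium, stellate cells, cholangiocytes, lymphocytes, red blood cells and exocrine pancreas had means between 4.341 and 4.62 in every array, with 1 of their 48 measured genes above 5. Pcyt2, the targeted gene, was lower on all 4 Pcyt2+/- arrays (4.604 to 4.669) than on both wild type arrays (4.796 and 4.887). That pattern was found for 7.17% of all genes. The Pcyt2 difference of -0.20, near the array median, did not pass (limma adjusted p = 0.264). With each array's median signal subtracted on the linear scale, Pcyt2 had log2 values of 1.676 to 2.102 in Pcyt2+/- mice. Wild type mice 3 and 4 then had 3.074 and 2.745, so the groups stood farther apart on that scale. The sources used here do not say whether its probe set covers the altered stretch. In whole liver, fewer cells of a type and less RNA per cell cannot be told apart.

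The comparison asked which of these genes differ in liver when Pcyt2 is deficient. Of the 6, 5 had a lower mean in Pcyt2+/- liver and 1, Fbp1, a slightly higher one. On the log2 scale the largest difference was that of Pck1, and the one with the smallest p was that of Slc37a4. By limma, 0 of the 6 passed an adjusted p of 0.05 over 18820 genes, and over all genes the percentage called was 0 as well. At an unadjusted p under 0.05 there was 1 of the 6, Slc37a4, on the lower side, where 3.44% of all genes were lower and 1.86% higher. A lower mean was found for 51.9% of all genes and for 62.4% of the genes with a mean above 5.

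Pcx, the entry step, had log2 signals of 5.32, 5.36, 5.05 and 5.25 in Pcyt2+/- mice 1 to 4, and 5.37 and 5.41 in wild type mice 3 and 4. All 4 Pcyt2+/- values lay below both wild type values, by a narrow margin for mouse 2 and by the widest for mouse 3. The means were 5.25 ± 0.14 (SD, n = 4) and 5.39 ± 0.029 (SD, n = 2). The difference of -0.14 had a 95% interval of -0.33 to 0.045 and did not pass (limma adjusted p = 0.949). Without Pcyt2+/- mouse 3 it was -0.079. Its two-sided exact permutation p over the 15 splits of the arrays was 0.2.

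Pck1, the cytosolic carboxykinase, had log2 signals of 6.97, 7.48, 8.22 and 7.84 in Pcyt2+/- mice 1 to 4, and 8.29 and 8.40 in wild type mice 3 and 4. The groups did not overlap, with mouse 3 just under the lower wild type value and mouse 1 far below it. Against the wild type mean the 4 arrays stood at -1.38, -0.87, -0.13 and -0.51. Pck1 averaged 7.63 ± 0.53 (SD, n = 4) in Pcyt2+/- and 8.35 ± 0.075 (SD, n = 2) in wild type. That is a difference of -0.72 (SE 0.31), which makes the wild type signal 1.65-fold higher. The 95% interval ran from -1.45 to 0.0057, and the difference did not pass (limma adjusted p = 0.936, unadjusted p = 0.0514; exact permutation p = 0.133). The spread among Pcyt2+/- mice was wide for this array: of the 792 genes with a mean above 5, 4 had a larger SD among the Pcyt2+/- arrays. They were Snord104, Hamp, Serpina4-ps1 and Cyp4a12b, named after their values were seen.

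Pck2, the mitochondrial carboxykinase, was close to the array median in every liver. Its log2 signals were 4.58, 4.58, 4.59 and 4.56 in Pcyt2+/- mice 1 to 4, and 4.58 and 4.63 in wild type mice 3 and 4. The groups overlapped. The difference was -0.029 with a 95% interval of -0.069 to 0.010 (limma adjusted p = 0.949). It was -0.0063 without wild type mouse 4, so its size rested largely on that array.

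Fbp1, the bisphosphatase, was bright and did not separate the groups. Its log2 signals were 9.65, 9.43, 9.36 and 9.51 in Pcyt2+/- mice 1 to 4, and 9.39 and 9.50 in wild type mice 3 and 4. Both wild type values lay within the Pcyt2+/- range. The means were 9.49 ± 0.13 (SD, n = 4) and 9.45 ± 0.080 (SD, n = 2), and the difference of 0.041 had a 95% interval of -0.14 to 0.23 (limma adjusted p = 0.995). Its sign turned without Pcyt2+/- mouse 1 (-0.014) and without wild type mouse 3 (-0.016).

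Slc37a4, the glucose-6-phosphate transporter, was lower in each Pcyt2+/- liver, by similar amounts on the deposited log2 scale. Its log2 signals were 4.61, 4.65, 4.66 and 4.59 in Pcyt2+/- mice 1 to 4, and 4.85 and 4.83 in wild type mice 3 and 4. The groups did not overlap, and the gap between them was wider than the range within either group. Slc37a4 averaged 4.63 ± 0.035 (SD, n = 4) in Pcyt2+/- and 4.84 ± 0.017 (SD, n = 2) in wild type. The difference was -0.21 (SE 0.023; 95% interval -0.27 to -0.16). Among the 18820 genes, 4 had a smaller unadjusted p than its 3.8e-05. The adjusted p by limma was 0.13, which did not pass. It was the smallest adjusted p in the fit, and 7 genes shared it. Under a trended and robust variance prior the adjusted p was 0.0165, past the threshold. Its two-sided exact permutation p was 0.0667, the lowest value possible with 15 splits, and 0.05 is out of that test's reach.

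Because Slc37a4 lay near the array median, its log2 difference depended on how that floor was treated, and so did the evenness of the 4 mice. With each array's median signal subtracted on the linear scale, the log2 values were 1.71, 2.00, 2.06 and 1.54 in Pcyt2+/- mice 1 to 4, and 2.95 and 2.87 in wild type mice 3 and 4. The Pcyt2+/- values spread more widely here, and the groups still did not overlap. On that scale the difference was -1.08 with a 95% interval of -1.44 to -0.72, which makes the wild type signal 2.12-fold higher (limma adjusted p = 0.0671 over 3248 genes). The same step moved Pcx to -0.32 (95% interval -0.77 to 0.13) and left the brighter genes closer to their deposited differences, at -0.80 for Pck1, -0.50 for G6pc and 0.042 for Fbp1. The 95% interval for Pck1 then ran from -1.58 to -0.021, and its adjusted p by limma was 0.628. Pck2 was too dim for this step, which kept genes with a mean above 4.6.

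G6pc, the phosphatase that works together with Slc37a4, varied more between mice. Its log2 signals were 7.31, 7.62, 7.58 and 6.73 in Pcyt2+/- mice 1 to 4, and 7.57 and 7.91 in wild type mice 3 and 4. The groups overlapped: Pcyt2+/- mice 2 and 3 were above wild type mouse 3, and mouse 4 was the lowest by far. G6pc averaged 7.31 ± 0.41 (SD, n = 4) in Pcyt2+/- and 7.74 ± 0.24 (SD, n = 2) in wild type. The difference of -0.43 (95% interval -1.02 to 0.16) is a 1.35-fold higher signal in wild type. It did not pass (limma adjusted p = 0.952; exact permutation p = 0.4). Without Pcyt2+/- mouse 4 the difference was -0.24, and without wild type mouse 4 it was -0.26. By SD among the Pcyt2+/- arrays, 10 of the 792 genes with a mean above 5 varied more than G6pc.

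**Figure D2:**
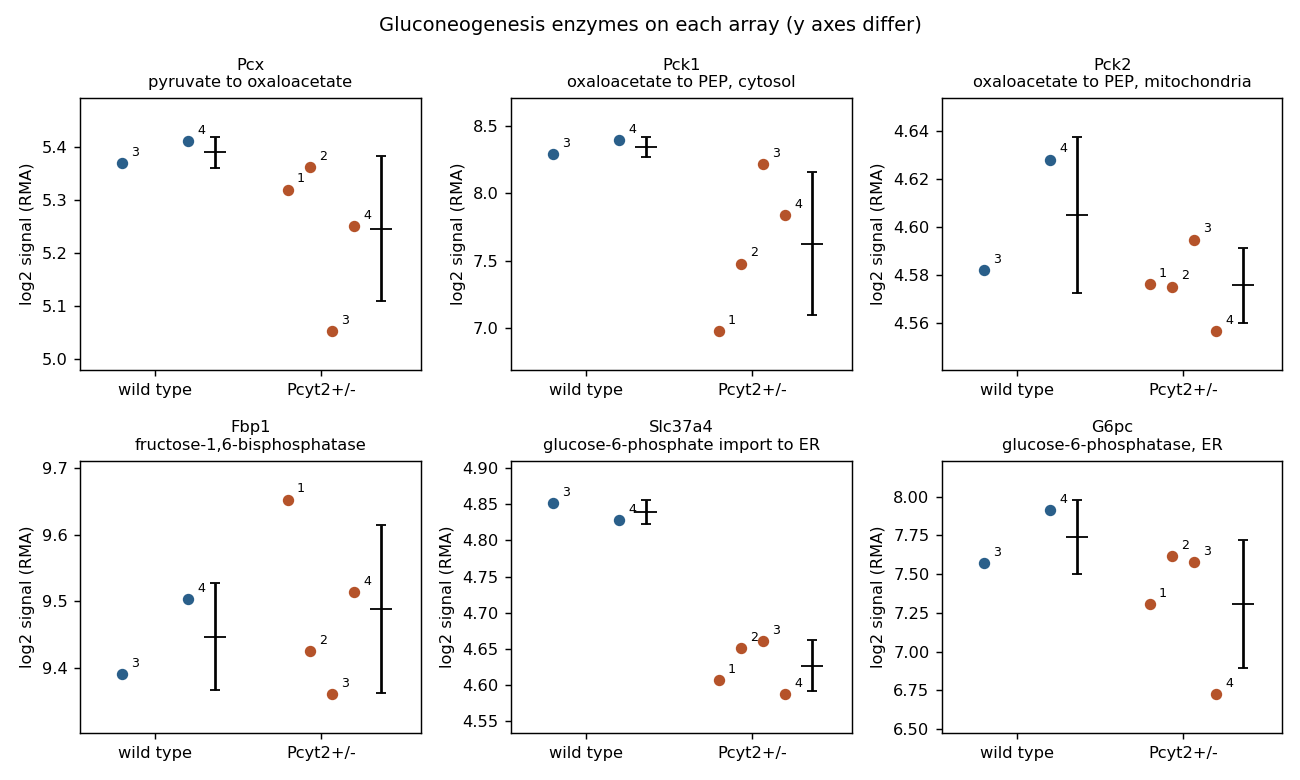
Log2 RMA signal of the 6 enzymes on each array (points, labelled with the mouse number; blue wild type, n = 2; orange Pcyt2+/-, n = 4; black bar, mean ± SD). The y axes differ between panels. Slc37a4 shows a gap between groups, Pck1 a wide Pcyt2+/- range from 6.97 to 8.22, and Fbp1 full overlap.

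**Figure D3:**
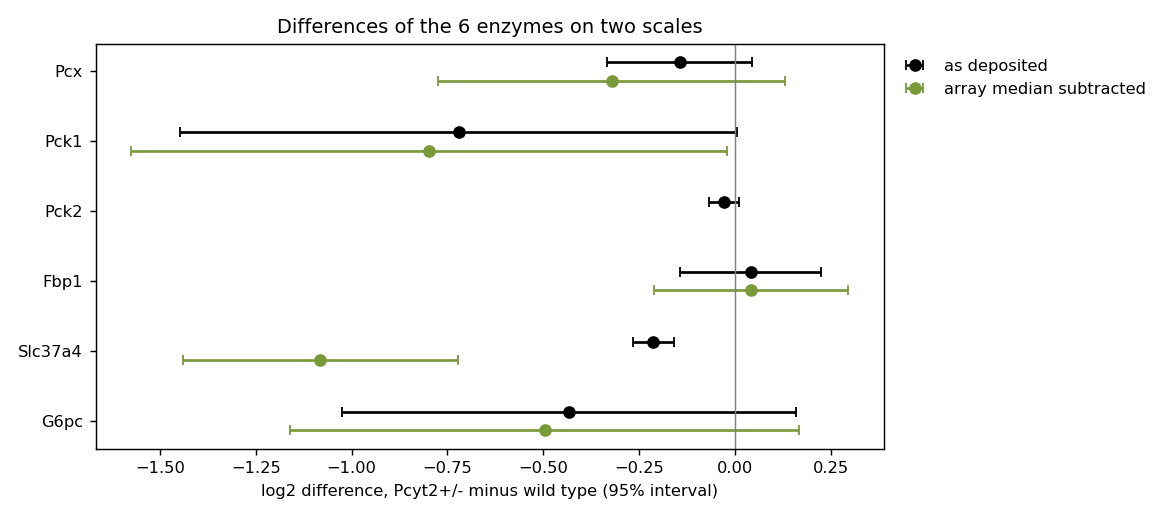
Log2 difference, Pcyt2+/- minus wild type, with limma's 95% interval, for deposited values (black) and after subtracting each array's median signal on the linear scale (green; not available for Pck2). Slc37a4 moves from -0.21 to -1.08, while Fbp1 stays near 0.

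The mouse with the lowest signal was not the same for each enzyme. Among the Pcyt2+/- arrays, Pck1 was lowest in mouse 1, Pcx and Fbp1 in mouse 3, and G6pc, Slc37a4 and Pck2 in mouse 4. In mouse 1, Pck1 stood at -1.38 against the wild type mean while Fbp1 stood at 0.21, its highest. In mouse 3, Pck1 was nearest to wild type (-0.13) while Pcx was farthest from it (-0.34). In mouse 4, G6pc stood at -1.01 and Pck1 at -0.51. Slc37a4 stood between -0.25 and -0.18 in all 4 mice. Both carboxykinase forms were highest in mouse 3, but Pck2 spanned only 0.038 among the 4 arrays where Pck1 spanned 1.25. Of the 6 enzymes, 3 (Pck1, Slc37a4 and Pcx) had all Pcyt2+/- arrays below both wild type arrays, a pattern found for 7.17% of all genes and for 15.3% of genes with a mean above 5. The median difference over the 6 was -0.18, against -0.00073 over all genes tested and -0.020 over those with a mean above 5.

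**Figure D4:**
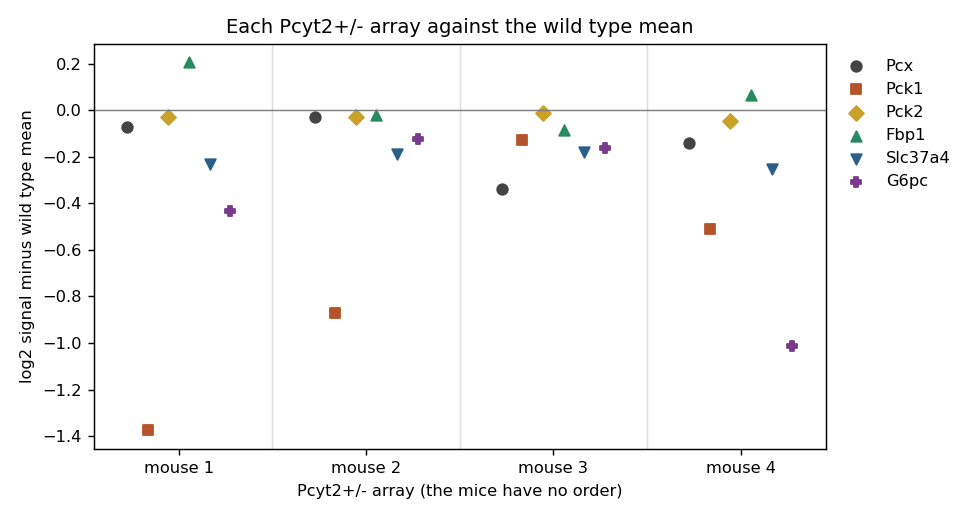
Log2 signal of each enzyme on each Pcyt2+/- array minus the mean of the 2 wild type arrays (y axis), by mouse (x axis; the mice have no order). Pck1 is farthest below in mouse 1, G6pc in mouse 4 and Pcx in mouse 3, and Slc37a4 lies between -0.25 and -0.18 in all 4.

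For each enzyme, the 3 genes with the most similar pattern over the 6 arrays were taken from 738 candidates with a mean above 5. This likeness is the best of many over 6 arrays that include the group difference, and it is a description. Slc37a4 was closest to Tat, which starts tyrosine breakdown (Pearson r = 0.978), Apob, the protein of VLDL particles (0.974), and Cyp4a31, a fatty acid hydroxylase (0.972). G6pc was closest to Ddx6, an RNA helicase (0.957), Slc27a2, which activates fatty acids (0.954), and Aadac, an arylacetamide deacetylase (0.944). Pcx was closest to Hgd, of tyrosine breakdown (0.984), Hamp, the iron hormone hepcidin (0.974), and Rpl10, a ribosomal protein (0.970). Pck2 was closest to Adh5, a formaldehyde-handling dehydrogenase (0.994), Trir (0.962) and Abcb4, the phosphatidylcholine exporter into bile (0.945). Fbp1 was closest to Dhrs1 (0.977), Mlf2 (0.967) and Cdk5r2 (0.952). Pck1 had the lowest leading value of the 6, with Rpl6, a ribosomal protein (0.845), Lingo3 (0.827) and Fabp1, the liver fatty acid binding protein (0.745).

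The other genes of the pathway were read from lists of enzymes, carriers, regulators and liver zones. Of 77 measured genes in these lists, zone markers included, 0 passed limma over all genes. Counting unadjusted p-values under 0.05, there were 14 on the lower side and 4 on the higher, or 18.2% and 5.19%, beside 3.44% and 1.86% of all genes and 14.6% and 5.56% of genes with a mean above 5. After quantile normalization the pathway split was 12 lower and 6 higher, and that of all genes moved from 648 and 350 to 540 and 452. In a fit of the genes with a mean above 5, which 28 of the 77 had, 4 were lower and 0 higher by limma at that unadjusted p. The share over all genes of that fit is not given here. Over the 77, the median difference was -0.024.

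For enzymes that gluconeogenesis shares with glycolysis, and for the isoforms of Fbp1 and G6pc, the log2 differences were small. Only 3 of the 7 measured had a mean above 5. The isoforms G6pc2 (mean 4.259), Fbp2 (4.338) and G6pc3 (4.386) lay below the array median. Their small differences therefore do not show unchanged expression. By limma 0 of the 7 measured reached an unadjusted p under 0.05, with a median of -0.014. The smallest p belonged to G6pc2, the islet form of the phosphatase (-0.014), Pgk1, a phosphoglycerate kinase (-0.017), and G6pc3, the ubiquitous phosphatase (-0.015). The sign turned for Pgk1 without wild type mouse 4 (0.013) and for G6pc3 without wild type mouse 3 (0.014), and G6pc2 was left with -0.00098 without wild type mouse 3.

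Genes of substrate entry, which turn amino acids, lactate and glycerol into intermediates of the route, were mostly on the lower side. Of 18 measured, 15 (83.3%) had a lower mean, beside 51.9% of all genes and 62.4% of genes with a mean above 5, which 11 of the 18 had. By limma an unadjusted p under 0.05 was reached by 4 on the lower side (22.2%) and 1 on the higher (5.56%). Those shares were 3.44% and 1.86% of all genes, and 14.6% and 5.56% of genes with a mean above 5. The median of the 18 was -0.058. Tat, the tyrosine aminotransferase, averaged 7.31 ± 0.23 (SD, n = 4) in Pcyt2+/- and 8.44 ± 0.20 (SD, n = 2) in wild type, and its difference was -1.13 (limma adjusted p = 0.219, and 0.0418 with the trended and robust prior). Got1, the cytosolic aspartate aminotransferase that regenerates oxaloacetate in the cytosol, had -0.67 (limma adjusted p = 0.511). Gpt2, an alanine aminotransferase that makes pyruvate, had -0.22 (limma adjusted p = 0.662). Without wild type mouse 4 the differences were -0.43 for Got1 and -0.12 for Gpt2.

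The list of opposing steps of glycolysis and of glycogen, which also holds Slc2a2, a gene of glucose release, was split. Of its 8 measured genes 4 were lower, with a median of 0.00061. A mean above 5 was found for 0 of the 8, so these log2 differences are compressed by the array's floor. At an unadjusted p under 0.05, 1 was lower and 0 higher by limma. That gene was Gys2, the liver glycogen synthase, with -0.089 (-0.041 without wild type mouse 4). Slc2a2, the glucose transporter GLUT2 through which hepatocytes release glucose, had -0.096, a sign that turned without wild type mouse 3 (0.011). Pklr, the liver pyruvate kinase, had 0.033, which turned without wild type mouse 4 (-0.0017).

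Among 27 measured regulators, an unadjusted p under 0.05 by limma was reached by 3 on the lower side (11.1%) and 2 on the higher (7.41%). Of all genes it was 3.44% and 1.86%. The regulators had a median of -0.014, and 5 of them had a mean above 5. Klf15, which drives amino acid breakdown and gluconeogenesis in fasting, averaged 4.87 ± 0.016 (SD, n = 4) in Pcyt2+/- and 4.95 ± 0.041 (SD, n = 2) in wild type, with a difference of -0.077 (limma adjusted p = 0.646; -0.049 without wild type mouse 4). Ppargc1a, the coactivator known to drive Pck1 and G6pc in fasting, lay below the array median at 4.32 against 4.36, with a difference of -0.033 (limma adjusted p = 0.796). Foxo1 had 0.034 (limma adjusted p = 0.909). Onecut1, a liver transcription factor, was on the higher side with 0.18 (limma adjusted p = 0.662), at 4.92 ± 0.075 (SD, n = 4) against 4.74 ± 0.0097 (SD, n = 2).

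The route is known to be more active around the portal vein than around the central vein of the liver lobule, so markers of both zones were read beside it. At an unadjusted p under 0.05 by limma, 3.44% of all genes were lower and 1.86% higher. Of genes with a mean above 5 it was 14.6% and 5.56%. Of 7 measured periportal genes, 3 on the lower side and 1 on the higher had such a p, with a median of -0.050. The lower 3 were Hsd17b13, a lipid droplet protein (-0.14, limma adjusted p = 0.219), Cps1, which opens the urea cycle (-0.56, limma adjusted p = 0.529; -0.37 without wild type mouse 4), and Pigr, the transporter of polymeric antibodies (-0.050, limma adjusted p = 0.873). Of 10 pericentral genes it was 3 and 0, with a median of -0.047. They were Oat, the ornithine aminotransferase (-0.36, limma adjusted p = 0.626), Cyp7a1, which opens bile acid synthesis (-0.30, limma adjusted p = 0.714), and Slc1a2, a glutamate transporter (-0.061, limma adjusted p = 0.913; -0.019 without wild type mouse 3). Glul, the glutamine synthetase of the innermost pericentral cells, had -0.13 (limma adjusted p = 0.978), and between -0.26 and -0.072 with 1 array left out. In each zone only 1 marker with a mean above 5 stood on the higher side, here named after the values were seen. Cyp2f2, a periportal P450, had 0.21 (limma adjusted p = 0.886), and Cyp1a2, a pericentral P450, had 0.20 (limma adjusted p = 0.936; 0.056 without wild type mouse 4). All other zone markers with a mean above 5 had a lower mean, among them Hal (-0.14), Cyp2e1 (-0.098) and Alb (-0.042). Both zone lists had a median below 0, and the part of zonation in the differences of the 6 enzymes was not tested.

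**Figure D5:**
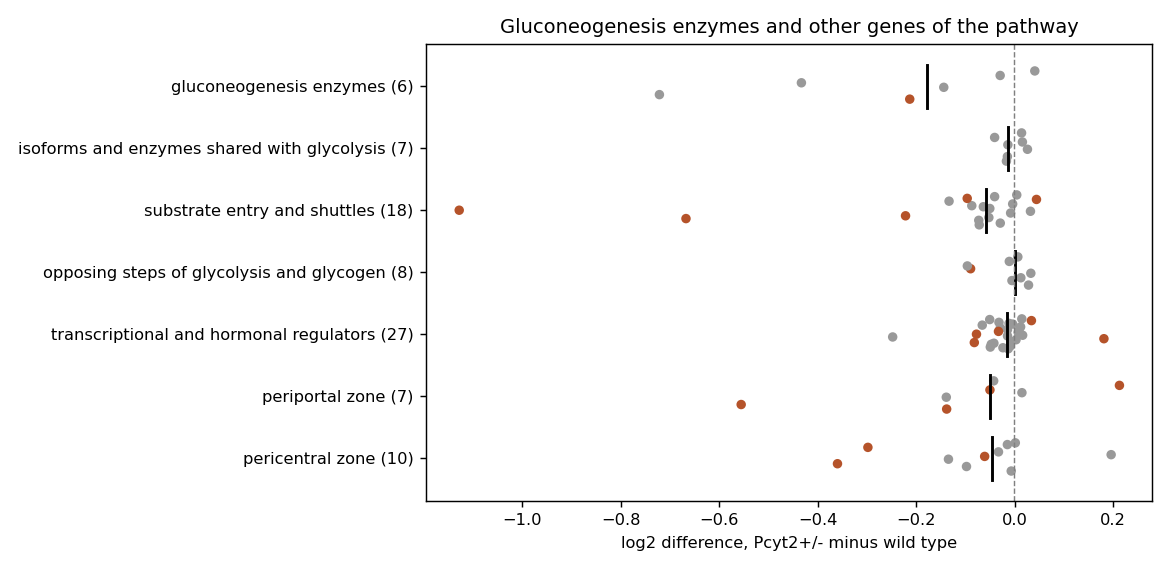
Log2 difference, Pcyt2+/- minus wild type, of each measured gene (points; orange, unadjusted p under 0.05 by limma; grey, the others) by list, with the number measured in brackets. Black bars mark list medians, from -0.18 for the 6 enzymes to 0.00061 for the opposing steps, and the dashed line the median of all genes.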

How the data were processed

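Liver RNA of 6 mice was measured on Affymetrix arrays, 1 per mouse. Per the submitters' processing notes, RMA was used to obtain the deposited log2 values, 1 per probe set. Neither its version nor a genome build is given in the sources used here. The table held 28996 probe sets: 21218 with 1 gene symbol, 1881 with several and 5897 unnamed here. Only single-symbol rows were used, and for 1386 genes with several rows the brightest stood. Symbols were set against RefSeq (GRCm38.p6) by gene identifier: 21185 matched and 0 differed.

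Each difference is Pcyt2+/- minus wild type. R 4.3.3 with limma 3.58.1 gave the tests (moderated by eBayes, two-sided, no covariate, 4 residual degrees of freedom), with Benjamini-Hochberg adjustment over 18820 genes. Log2 differences of dim genes are compressed by the array's floor. The code was tested on simulated data. The members and lists were chosen with earlier results of these data known. Besides the 6 enzymes, genes were named by rule: up to 3 per list with the smallest unadjusted p, a fixed set (including Pklr, Ppargc1a, Foxo1, Klf15 and Glul), and the 3 most alike per enzyme, passing over predicted genes. Promoters were searched in Python 3.11.15. Precision is limited by the number of arrays. An item of the fixed set is not reported here. The labels give no batch. They name separate mice. The other settings are given at the end.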

Additional observations from a re-analysis of the deposited data

Results flagged for a closer look

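Among 101 genes read here, the highest or lowest of the 4 Pcyt2+/- arrays stood far from the other 3 for 8, where chance gives about 1 in 20. None of the 6 enzymes was among them. On the array of mouse 4, Cyp7a1 was below the others at 4.505, Creb3l3, a fasting-responsive transcription factor, below at 5.076, and Klf15 above at 4.892. On that of mouse 3, G0s2, a lipase inhibitor, was above at 4.757, Fabp1 above at 9.088, and Rpl10 below at 7.876. On that of mouse 2, Pfkl, a phosphofructokinase, was above at 4.457 and Irs1, an insulin receptor substrate, above at 4.466.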

How the results depend on the processing

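Each enzyme was recomputed under up to 14 other settings. Pck1, G6pc, Pcx, Slc37a4 and Pck2 kept a negative difference in all settings that gave a value, 14 for the first 3, 13 for Slc37a4 and 12 for Pck2. Slc37a4 and Pck2 were too dim for the fit of genes with a mean above 5, and Pck2 for the floor subtraction. The differences with 1 array left out ran from -0.9186 to -0.5033 for Pck1, -0.6033 to -0.2394 for G6pc, -0.2246 to -0.1999 for Slc37a4, -0.1823 to -0.07943 for Pcx, -0.05225 to -0.006348 for Pck2 and -0.01563 to 0.09766 for Fbp1, whose sign turned. Fits without a wild type array assume that the other varies like the Pcyt2+/- arrays. Of the 6, only Slc37a4 passed in any setting, with the trended and robust prior (-0.2129, adjusted p = 0.0165).

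Limma called 0 of all genes as reported (998 at an unadjusted p under 0.05). It called 3 among the 792 genes with a mean above 5, 3 with the floor subtracted, 9 with the trended and robust prior, 2 with the replicate block, and 0 to 9 with 1 array left out, the 9 without wild type mouse 3. Of the 77 pathway genes and zone markers, 1 (Tat) was called with the trended and robust prior, and with 1 array left out 0 to 1 (the periportal marker Hsd17b13, without wild type mouse 3). Of these 77, 14 (18.2%) were lower by limma at an unadjusted p under 0.05, beside 3.44% of all genes and 14.6% of genes with a mean above 5. That count was 22 without Pcyt2+/- mouse 1 and 4 when only the 28 with a mean above 5 could enter. The share over all genes in those other fits is not given here, so these changes are not read as particular to the pathway.

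Both groups have a mouse 3 and a mouse 4, but the numbers are not said to pair the mice. The deviations from the group mean correlated at 0.246 for number 3 and 0.00799 for number 4. Deviations of the 2 wild type arrays from their own mean mirror each other, so these correlations cannot tell whether the numbers pair the mice. The replicate block is informed only by the arrays of mice 3 and 4 of both groups. With this block the difference was -0.3198 for Pck1, -0.5889 for G6pc, -0.2153 for Slc37a4, -0.2383 for Pcx and -0.0293 for Pck2. For Fbp1 it was -0.009766, a turned sign.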
